A study of Mus musculus with 60 samples.

Results

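The genes of de novo purine synthesis were followed in pancreatic islets of mice whose beta cells carry a switchable form of the transcription factor MYC. The list held 10 genes named for the enzymes of the pathway: Prps1, Ppat, Gart, Pfas, Paics, Adsl, Atic, Impdh1, Impdh2 and Gmps. A gene was measured through the array probe sets whose only gene symbol was that of the gene, and where there were several, the probe set with the widest interquartile range over the arrays stood for it. Of the 10 genes, 9 had such a probe set and all 9 passed the filter on variation, among 13176 genes tested of 18193 named. Impdh2 was not analysed here, since no probe set carried its symbol alone.

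Purine nucleotides are built on phosphoribosyl pyrophosphate, which Prps1 makes from ribose phosphate. Ppat takes the committed step, and Gart, Pfas, Paics, Adsl and Atic complete the ring to give inosine monophosphate, from which Impdh1 or Impdh2 and then Gmps make guanine nucleotides. Growing cells need these nucleotides for DNA and RNA, and several genes of the pathway are known from other cells as targets of MYC, which binds the DNA letters CACGTG, called an E-box.

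All animals were male pIns-MYCERTAM transgenic mice on a CBA-C57BL/6 background, in which the insulin promoter drives a fusion of MYC to an oestrogen receptor domain in beta cells. MycON mice received 1 mg of 4-hydroxytamoxifen per day, which activates the fusion protein, and MycOFF mice received peanut oil. Each state was combined with exendin-4, a GLP-1 receptor agonist given under the skin at 50 µg/kg 2 times a day, or with water as its vehicle, in each case from 2 days earlier, and islets were cut by laser from 15 µm frozen pancreas sections after 4, 8, 16, 32 or 72 h. The labels give an age of 8 to 12 weeks and the treatment protocol 3 months. No group without the fusion protein received the drug, so that an effect of MYC and an effect of 4-hydroxytamoxifen cannot be told apart. Of 60 arrays, 8 had been excluded by the submitters for poor reproducibility. The remaining 52 comprised 13 MycON and 12 MycOFF arrays with water, and 12 MycON and 15 MycOFF arrays with exendin-4, with 3 arrays in 12 of the 20 groups and 2 in the other 8. The labels call the arrays biological replicates but tie none to a named animal, so the p-values measure the spread between arrays.

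For every probe set the deposited log2 values are centred on the median of that probe set over the 60 arrays. The values therefore show where a gene was higher or lower, and hold no level that could be compared between genes or against a tissue marker. The SD of the deviations over all probe sets ranged from 0.284 to 0.946 within the 52 arrays. In MycON arrays the markers of macrophages were higher for 5 of 7 tested genes, and those of beta cells lower for 3 of 7, namely Pdx1, Slc2a2 and Ucn3. The rule was that of the first comparison below, under which 9.93% of all genes tested were higher and 5.48% lower. The mean deviation of the macrophage markers ran from -1.21 to 3.59 in MycON exendin-4 arrays, from -1.21 to 2.28 in MycON water arrays, from -1.82 to 0.44 in MycOFF exendin-4 arrays and from -1.07 to 0.65 in MycOFF water arrays. The mean of the beta-cell markers ran from -1.39 to 0.53, from -1.25 to 1.15, from -1.23 to 1.47 and from -1.10 to 1.52 in the same order. None of the 8 acinar, 3 alpha-cell, 2 delta-cell, 2 duct, 2 lymphoid, 6 stromal and 5 skin or muscle markers tested passed, and 1 of 4 endothelial markers, Kdr, was lower. The part of these cell types in the results below was not tested, and in whole islets fewer cells of a type and less RNA per cell cannot be told apart.

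Stretches of promoter are shown first. An E-box stood before Paics, which rose with MYC, and before Atic, which did not pass the test. None stood before Gart, which rose. These outcomes are of the probe set that stood for each gene, and a part of the E-box in them was not tested. In the RefSeq windows from 250 bases before to 50 bases after each start (mouse build GRCm38.p6), 9 of the 10 genes had an entry, with 10 windows in all. Pfas had no window and was not searched. The palindromic motif CACGTG, which reads the same on both strands, stood in 3 of these 10 windows, and in 7.15% of all 32851 windows. The Paics motif lay at positions -203 to -198 from the start, the Impdh2 motif at -110 to -105 and the Atic motif at -7 to -2, with the motif in capitals in the sequences that follow. The stretch of Paics, at chr5:76951087-76951116 on the plus strand, and that of Impdh2, at chr9:108560314-108560343 on the plus strand, each show the motif with 12 bases on either side. For Atic, the 250 bases upstream of the start are given, at chr1:71556906-71557155 on the plus strand. For Gart, the 250 bases upstream of the start, at chr16:91646973-91647222 on the minus strand, are given as a window with no match.
Paics: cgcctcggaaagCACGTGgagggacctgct
Impdh2: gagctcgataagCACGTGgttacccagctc
Atic: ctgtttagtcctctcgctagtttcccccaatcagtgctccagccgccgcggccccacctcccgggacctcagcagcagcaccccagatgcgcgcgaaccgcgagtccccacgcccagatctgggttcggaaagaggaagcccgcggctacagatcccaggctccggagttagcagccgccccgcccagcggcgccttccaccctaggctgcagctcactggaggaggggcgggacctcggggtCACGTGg
Gart: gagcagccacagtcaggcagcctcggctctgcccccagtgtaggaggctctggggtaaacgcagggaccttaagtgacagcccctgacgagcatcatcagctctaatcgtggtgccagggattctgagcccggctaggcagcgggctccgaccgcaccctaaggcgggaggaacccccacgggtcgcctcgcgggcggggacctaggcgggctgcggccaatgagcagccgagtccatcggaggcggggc
Ppat and Paics are neighbours on opposite strands of chromosome 5 with overlapping gene models, and the window of Ppat, at chr5:76951529-76951828 on the minus strand, held no match. The windows of Adsl, Gmps, Prps1 and both starts of Impdh1 held none either. The Paics motif lies outside the Ppat window, downstream of the Ppat start. A match is a description of letters and not of binding.

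The first comparison asked how activation of MYC moved the pathway, averaged over the 5 times and both injections. Of the 9 genes, 6 rose in MycON islets, by 1.73-fold to 2.67-fold: Ppat, Gart, Pfas, Paics and Adsl on the way to inosine monophosphate, and Gmps on the guanine branch. Prps1 before the pathway, Atic at its end and Impdh1 on the guanine branch did not pass the test, and no gene was lower. Over all genes tested 9.93% were higher by the same rule, limma with Benjamini-Hochberg adjusted p under 0.05. The list was chosen with earlier results of these data known, so the share stands beside the count as a description only. The median difference was 0.80 over the 9 genes and -0.03 over all genes tested.

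**Figure D1:**
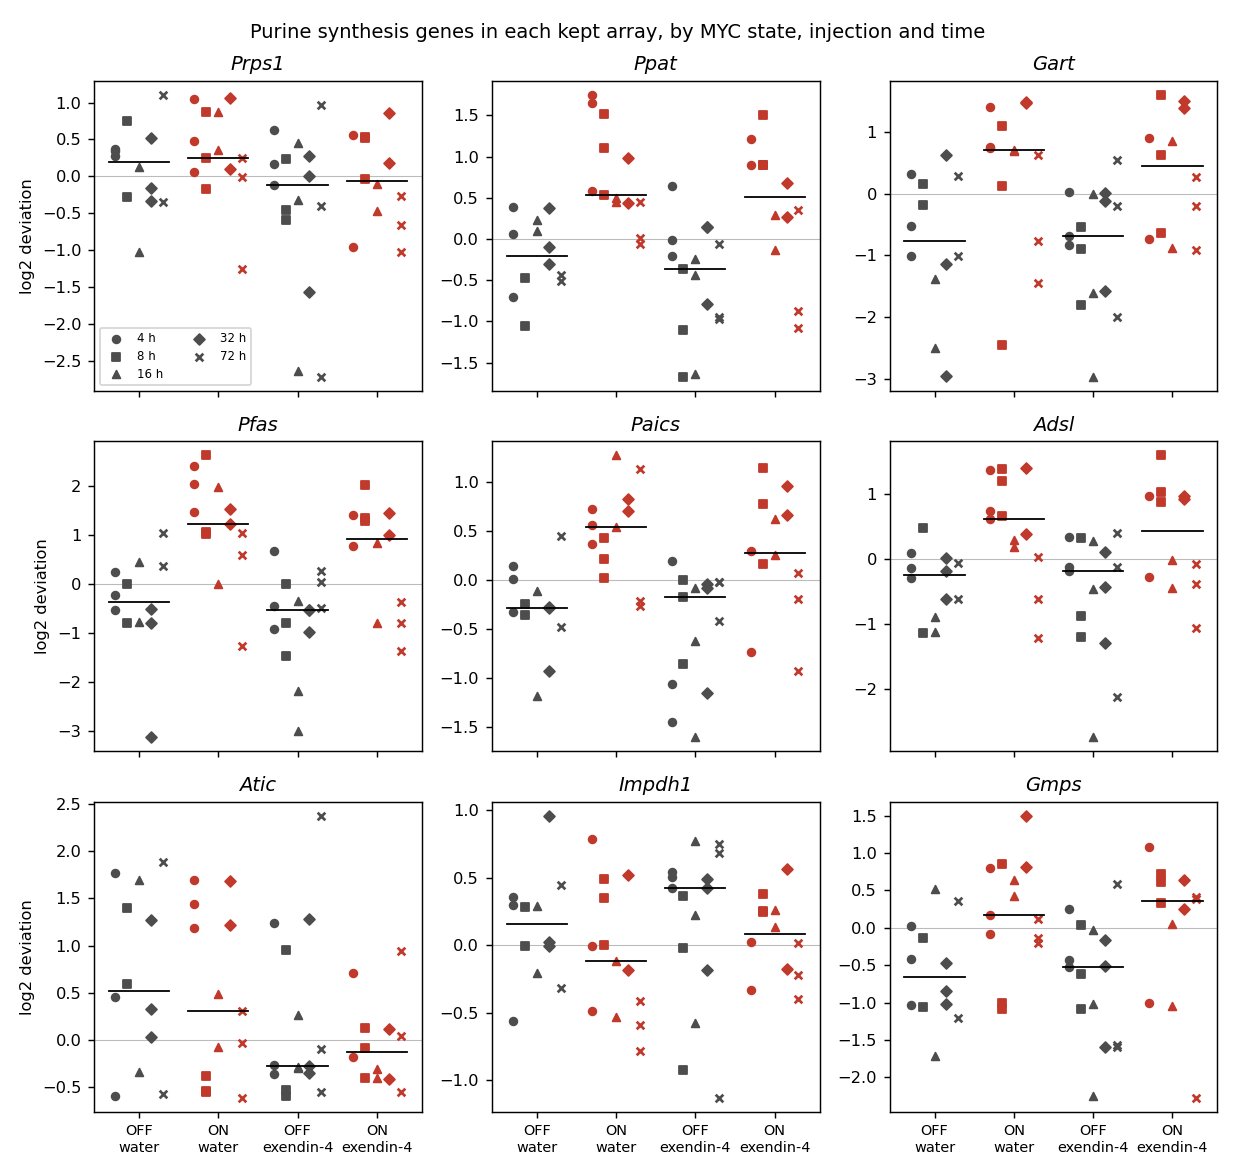
Log2 deviation of each gene (vertical axis) in each of the 52 arrays, in 4 columns by MYC state and injection; symbols mark the time, red points are MycON, grey points MycOFF, and bars are medians. The MycON medians of Ppat, Gart, Pfas, Paics, Adsl and Gmps lie above 0 and the MycOFF medians below 0 with either injection.

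Prps1, which supplies phosphoribosyl pyrophosphate, had deviations with lowest, median and highest values of -1.25, 0.25 and 1.06 in MycON water arrays and of -1.02, 0.20 and 1.10 in MycOFF water arrays. With exendin-4 they were -1.03, -0.07 and 0.86 in MycON and -2.72, -0.12 and 0.96 in MycOFF. The ranges overlapped almost fully at the upper end, and no MycON array exceeded the highest MycOFF array. The difference was 0.29 ± 0.23 (log2 ± SE, adjusted p = 0.438 in limma), with a 95% interval from -0.17 to 0.76.

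Ppat, the amidotransferase of the committed step, ran over -0.06, 0.53 and 1.75 (lowest, median, highest) in MycON water arrays and -1.05, -0.20 and 0.39 in MycOFF water arrays. With exendin-4 the values were -1.08, 0.51 and 1.51 in MycON and -1.67, -0.36 and 0.65 in MycOFF. Of the 25 MycON arrays 11 lay above every one of the 27 MycOFF arrays. The MycON mean was higher by 0.95 ± 0.14, or 1.94-fold (limma, adjusted p = 6.32e-06), the smallest adjusted p among the 9 genes.

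Gart, whose protein carries 3 enzyme activities of the early pathway and takes up a folate-borne formyl group, had values of -2.45, 0.71 and 1.49 in MycON water arrays against -2.95, -0.77 and 0.62 in MycOFF water arrays. With exendin-4 they were -0.92, 0.44 and 1.59 in MycON against -2.97, -0.69 and 0.55 in MycOFF. The lowest MycON water value, -2.45, was replicate 3 at 8 h, whose companions stood at 1.10 and 0.12. Gart was 2.31-fold higher (1.21 ± 0.28, adjusted p = 0.00275 in limma), with 14 of 25 MycON arrays above all MycOFF arrays.

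Pfas, a glutamine-using synthase of the same route, showed the largest difference of the 9 genes. Its values were -1.27, 1.22 and 2.62 in MycON water arrays and -3.14, -0.37 and 1.04 in MycOFF water arrays. With exendin-4 its values were -1.37, 0.92 and 2.01 in MycON and -3.01, -0.53 and 0.66 in MycOFF. Again 14 of 25 MycON arrays lay above every MycOFF array. The difference was 1.42 ± 0.23, or 2.67-fold (limma, adjusted p = 2.6e-05).

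Paics, a bifunctional carboxylase and synthase, had values of -0.26, 0.55 and 1.27 in MycON water arrays and -1.18, -0.28 and 0.45 in MycOFF water arrays. With exendin-4 they were -0.92, 0.28 and 1.14 in MycON and -1.60, -0.17 and 0.20 in MycOFF. The 2 ranges overlapped, with 12 of 25 MycON arrays above all MycOFF arrays, and the gene was 1.74-fold higher (0.80 ± 0.15, adjusted p = 0.000143 in limma).

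Adsl, the lyase that acts both on this route and on the branch to adenine nucleotides, had values of -1.21, 0.62 and 1.40 in MycON water arrays and -1.14, -0.24 and 0.48 in MycOFF water arrays. With exendin-4 they were -1.06, 0.43 and 1.60 in MycON and -2.74, -0.19 and 0.40 in MycOFF. The lowest arrays of both states reached similar depths with water, while 13 of 25 MycON arrays exceeded all MycOFF arrays. Adsl was 1.87-fold higher (0.90 ± 0.20, adjusted p = 0.00128 in limma).

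Atic, which closes the ring, had values of -0.61, 0.31 and 1.69 in MycON water arrays and -0.59, 0.52 and 1.89 in MycOFF water arrays. The exendin-4 values were -0.55, -0.13 and 0.95 in MycON and -0.59, -0.28 and 2.37 in MycOFF. No MycON array exceeded the highest MycOFF array, and the difference was -0.20 ± 0.23 (limma, adjusted p = 0.597), with a 95% interval from -0.66 to 0.26. This interval lies below the differences measured for the 6 genes that rose, although the test of Atic against those genes was not made. The second probe set of Atic, 1428506_at, gave 0.11 (limma, adjusted p = 0.591), a mean over times at which it went opposite ways. At 8 h all its MycON arrays lay above all MycOFF arrays with either injection, and at 72 h all lay below. The 72 h values were -0.98, -0.71 and -0.76 against 0.06 and -0.03 with water. With exendin-4 they were -0.70, -0.93 and -1.26 against 0.56, -0.37 and 0.63. Single times were not tested for this probe set.

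On the guanine branch, Impdh1, a form of the dehydrogenase that commits inosine monophosphate to guanine nucleotides, had values of -0.79, -0.12 and 0.79 in MycON water arrays and -0.56, 0.15 and 0.96 in MycOFF water arrays. The exendin-4 values were -0.40, 0.08 and 0.57 in MycON and -1.13, 0.42 and 0.77 in MycOFF. The states overlapped with both injections, and the difference was -0.14 ± 0.14 (limma, adjusted p = 0.53; 95% interval from -0.42 to 0.14). Gmps, the last enzyme of the branch, had values of -1.09, 0.17 and 1.50 in MycON water arrays, -1.72, -0.65 and 0.52 in MycOFF water arrays, -2.27, 0.36 and 1.08 in MycON exendin-4 arrays and -2.25, -0.52 and 0.59 in MycOFF exendin-4 arrays. The lowest values of both states were close with exendin-4 but not with water, 9 of 25 MycON arrays lay above all MycOFF arrays, and it was 1.73-fold higher (0.79 ± 0.23, adjusted p = 0.0175 in limma).

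The 6 calls were also made without each of the 52 arrays in turn. With the 8 excluded arrays included Gmps did not pass (adjusted p = 0.0697 in limma), and within some genes the probe sets differed. Both other probe sets of Paics were higher, by 0.87 and 0.42 (limma over all probe sets, adjusted p = 0.000124 and 0.0159). For Ppat 1428543_at was higher by 0.76 (adjusted p = 0.00159), while 1441770_at, which lay below the filter on variation, gave -0.03 (adjusted p = 0.641). For Gart 1441911_x_at was higher by 0.59 (adjusted p = 0.000331), 1424436_at gave 0.70 (adjusted p = 0.109) and 1424435_a_at gave -0.02 (adjusted p = 0.881). For Gmps 1435656_at was higher by 0.44 (adjusted p = 0.0261) and 1455057_at gave 0.37 (adjusted p = 0.186). Prps1, Pfas, Adsl and Impdh1 had a single probe set each.

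The second comparison set the MYC effect with water beside that with exendin-4, 2 contrasts that share no arrays. Ppat, Pfas, Paics and Adsl rose with either injection, by amounts that differed by less than 1 SE. With water 4 of 9 genes were higher where 3.94% of all genes tested were, and with exendin-4 4 of 9 where 4.56% were. With water Ppat was higher by 0.97 ± 0.20 (limma, adjusted p = 0.00233) and with exendin-4 by 0.94 ± 0.19 (adjusted p = 0.00212). Pfas was higher by 1.51 ± 0.33 (adjusted p = 0.00366) and by 1.32 ± 0.31 (adjusted p = 0.00806), Paics by 0.83 ± 0.21 (adjusted p = 0.0124) and by 0.77 ± 0.20 (adjusted p = 0.0174), and Adsl by 0.92 ± 0.28 (adjusted p = 0.049) and by 0.88 ± 0.27 (adjusted p = 0.0473), in limma throughout. The probe sets of a gene were not alike in this: Ppat 1428543_at passed with exendin-4 (0.84, adjusted p = 0.0277) but not with water (0.68, adjusted p = 0.106), and Paics 1436298_x_at passed with neither injection (0.41 with water, adjusted p = 0.197, and 0.43 with exendin-4, adjusted p = 0.152).

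Gart had the next largest differences without passing within an injection, 1.22 ± 0.41 with water (limma, adjusted p = 0.078) and 1.19 ± 0.39 with exendin-4 (adjusted p = 0.0672). Its probe set 1441911_x_at passed with water (0.78, adjusted p = 0.00307 in limma over all probe sets) but not with exendin-4 (0.39, adjusted p = 0.157). For 1424436_at the differences were 1.11 with water and 0.28 with exendin-4, and for 1424435_a_at 0.02 and -0.06, without passing. Gart passed with both injections under quantile normalization (adjusted p = 0.0179 and 0.0322) and array weights (0.0263 and 0.0467), with water under the mean over probe sets (0.00303), and with exendin-4 under the stricter filter (0.0483). Gmps gave 0.87 ± 0.34 (adjusted p = 0.14) and 0.71 ± 0.32 (adjusted p = 0.23). Its probe set 1435656_at passed with water (0.64, adjusted p = 0.0476 in limma over all probe sets) but not with exendin-4 (0.23, adjusted p = 0.567). For 1455057_at the differences were 0.19 with water and 0.56 with exendin-4, without passing. Gmps passed with water under quantile normalization (adjusted p = 0.0292 in limma) and with both injections under the mean over probe sets (0.0282 and 0.0487). Prps1 gave 0.24 and 0.35, Atic -0.19 and -0.21, and Impdh1 -0.20 and -0.09. The Adsl call was lost without any 1 of 35 of the 52 arrays with water (adjusted p up to 0.151) and without any 1 of 32 with exendin-4 (up to 0.153). Paics was lost with water without MycOFF water 16 h replicate 3 (adjusted p = 0.0526) and with exendin-4 without MycON exendin-4 4 h replicate 2 (adjusted p = 0.0719), the arrays without which 2 genes were called.

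**Figure D2:**
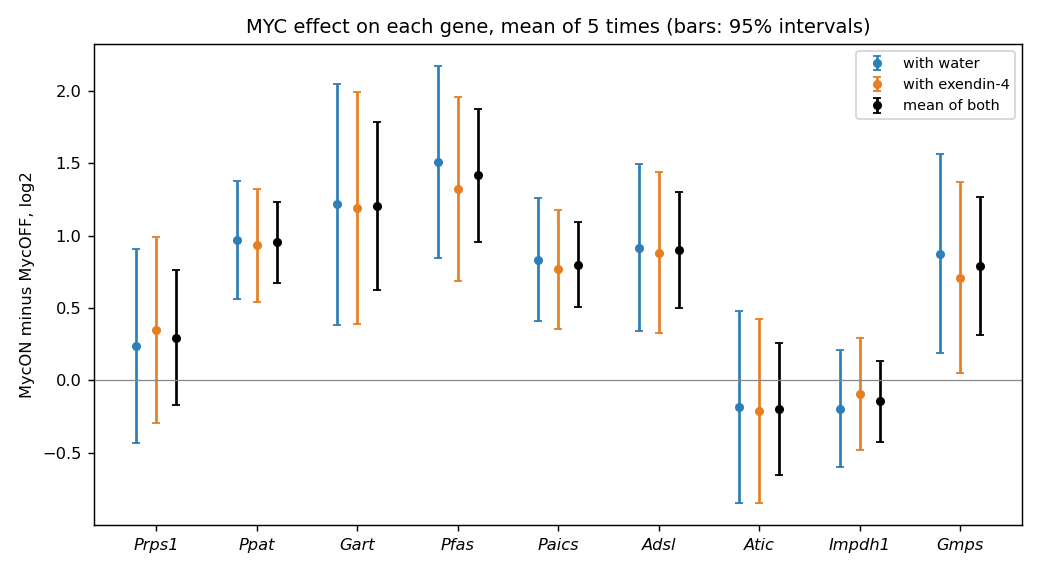
Difference of MycON minus MycOFF (vertical axis, log2) for each of the 9 genes with water, with exendin-4 and as the mean of both, over the 5 times; points are limma estimates and bars 95% intervals. The intervals of the mean exclude 0 for Ppat, Gart, Pfas, Paics, Adsl and Gmps and include it for Prps1, Atic and Impdh1.

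Exendin-4 itself moved none of the 9 genes past the threshold, and the MYC effect was not shown to differ with it. Averaged over both MYC states the differences of exendin-4 minus water lay between -0.53 (Atic) and 0.09 (Impdh1), with 0 of 9 genes called by limma, a smallest adjusted p of 0.306, and 3 of 9 genes at an unadjusted p under 0.05, namely Atic, Pfas at -0.51 and Ppat at -0.29. Of all genes tested 1.32% were called, and 12.4% had an unadjusted p under 0.05. In MycOFF islets alone 0 of 9 were called where 0.228% of all genes were, and in MycON islets alone 0 of 9 where 0.0683% were. At an unadjusted p under 0.05 there were 0 in both, beside 7.66% and 6.69% of all genes. The interaction of MYC and exendin-4 in limma ranged from -0.19 (Pfas) to 0.11 (Prps1) on the log2 scale, with 0 of 9 genes called (adjusted p = 1) and 0 at an unadjusted p under 0.05, where 0% of all genes were called and 250 of 13176 had an unadjusted p under 0.05.

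The times were then taken apart, with the MYC effect at each time as the mean of both injections. Ppat was the only gene of the 9 called at 4 h, where 1.58% of all genes were higher. Ppat, Pfas and Adsl rose at 8 h (3% of all genes), Paics at 16 h (2.06%), and Pfas, Gart and Paics at 32 h (2.36%). At 72 h 0 of 9 genes were called, where 1.38% of all genes were called in either direction.

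**Figure D3:**
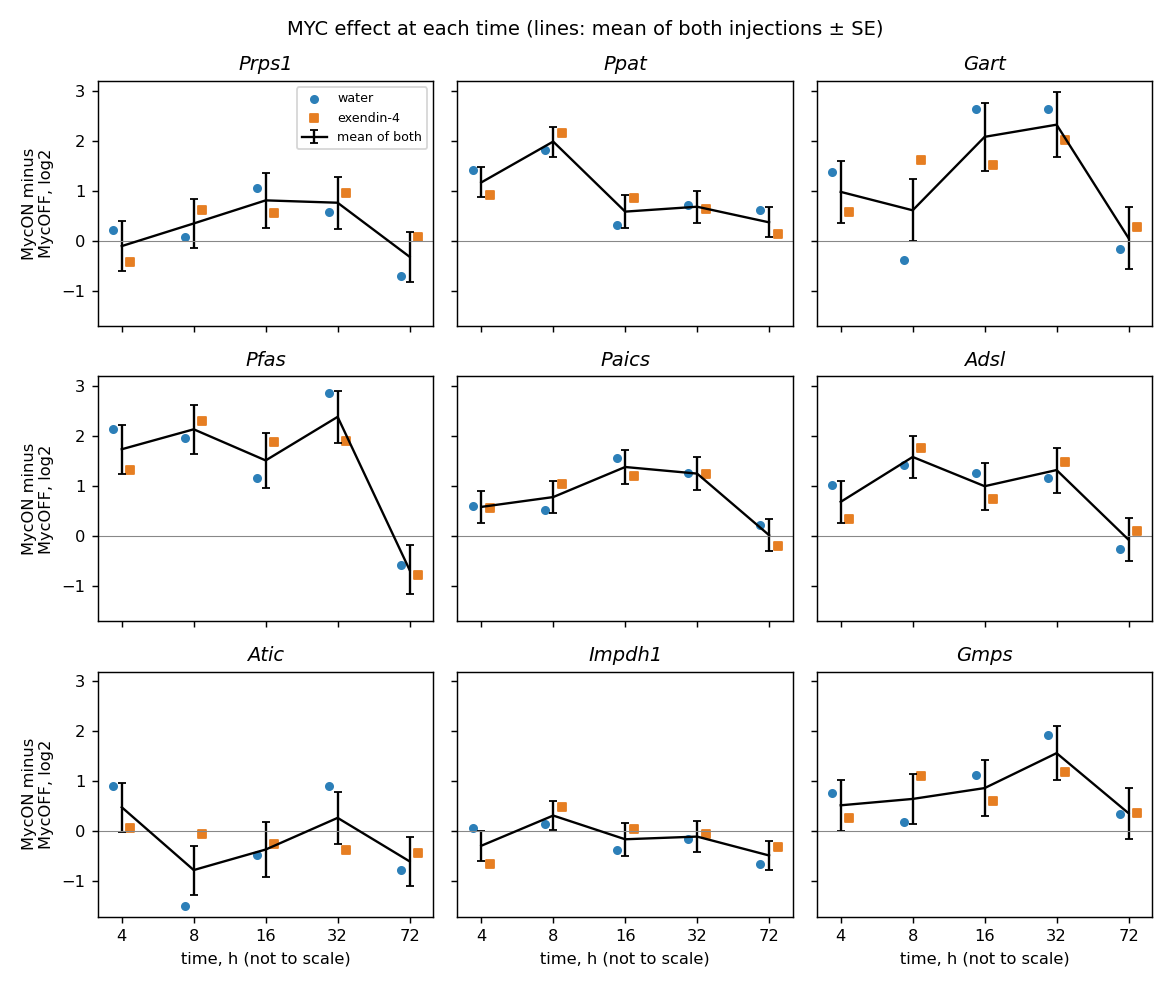
Difference of MycON minus MycOFF (vertical axis, log2) at 4, 8, 16, 32 and 72 h (horizontal axis, not to scale) for each of the 9 genes; blue circles are water, orange squares exendin-4, and the black line is their mean ± SE from limma. Each gene is shown by the probe set that stood for it. Ppat is highest at 8 h (1.98), Gart and Pfas at 32 h (2.32 and 2.38), and the mean line of every gene lies between -0.68 and 0.37 at 72 h, with single-injection points from -0.78 to 0.61.

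At 4 h the Ppat values with water were 1.65, 1.75 and 0.58 in MycON against 0.39, 0.06 and -0.70 in MycOFF, and with exendin-4 1.22 and 0.90 against -0.01, 0.65 and -0.21. The states did not overlap with either injection, and the difference was 1.16 ± 0.30 (limma, adjusted p = 0.0268). In the second probe set of Ppat, 1428543_at, the states overlapped with both injections. Pfas was also separate with both injections at 4 h, with 2.40, 2.03 and 1.48 against 0.23, -0.22 and -0.54 with water and 1.40 and 0.77 against 0.66, -0.46 and -0.93 with exendin-4. Its difference of 1.73 did not pass (limma, adjusted p = 0.0509). Gart at 0.98, Adsl at 0.68, Paics at 0.58 and Gmps at 0.52 did not pass.

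At 8 h Ppat had 1.52, 0.53 and 1.11 in MycON water arrays against -1.05 and -0.47 in MycOFF, and 0.90, 1.51 and 0.89 in MycON exendin-4 arrays against -1.67, -1.11 and -0.36. Every MycON array lay above every MycOFF array, and the difference of 1.98 ± 0.30 (limma, adjusted p = 6.52e-05) was the largest of this probe set at any time. With exendin-4 alone it was 2.15 ± 0.40 (limma, adjusted p = 0.00303), where 1.25% of all genes were higher. The second probe set of Ppat, 1428543_at, overlapped at 8 h. It had 1.59, 0.43 and -0.50 against -0.47 and 0.19 with water, and 0.91, 0.66 and 1.35 against -0.12, 0.02 and 1.12 with exendin-4. Pfas had 2.62, 1.02 and 1.06 against 0.01 and -0.80 with water, and 1.34, 2.01 and 1.29 against -0.01, -1.47 and -0.80 with exendin-4. Its states did not overlap, and it was higher by 2.13 ± 0.49 (limma, adjusted p = 0.00787). Adsl had 1.39, 1.20 and 0.66 against -1.14 and 0.48, and 1.60, 0.87 and 1.04 against -1.19, -0.87 and 0.32. The Adsl states were apart too, and the gene was higher by 1.58 ± 0.43 (limma, adjusted p = 0.0268). Atic, at -0.77 in the probe set that stood for it, was the lowest of the 9 at this time and did not pass. Its second probe set, 1428506_at, went the other way, with 0.23, 0.24 and 0.84 in MycON against 0.02 and -0.08 in MycOFF with water. With exendin-4 the values of 1428506_at were 0.74, 0.19 and 0.47 against -1.31, -0.72 and 0.12, a difference that was not tested at single times.

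At 16 h Paics had 1.27 and 0.55 in MycON against -0.11 and -1.18 in MycOFF with water, and 0.26 and 0.62 against -0.62, -0.08 and -1.60 with exendin-4. The states did not overlap, and Paics was higher by 1.38 ± 0.35 (limma, adjusted p = 0.0234). They were also apart with both injections in its probe set 1423565_at, but overlapped with both in 1436298_x_at. The latter had 0.99 and -0.18 against 0.23 and -0.36 with water, and -0.10 and 0.02 against -0.02, -0.42 and -0.25 with exendin-4. Gart gave 2.08 ± 0.68 without passing (limma, adjusted p = 0.103), and Pfas 1.51 (adjusted p = 0.142). The array MycOFF exendin-4 16 h replicate 3 had the lowest mean over the 9 genes of any array, -1.81.

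At 32 h Pfas had 1.53 and 1.22 in MycON against -3.14, -0.52 and -0.80 in MycOFF with water, and 1.44 and 0.99 against -0.98, -0.54 and -0.53 with exendin-4. No array crossed over, and Pfas was higher by 2.38 ± 0.52 (limma, adjusted p = 0.00664), its largest difference at any time. Gart had 1.49 and 1.47 against -2.95, -1.14 and 0.62, and 1.39 and 1.49 against -1.58, -0.12 and 0.00. The Gart states were likewise apart, with a difference of 2.32 ± 0.65 (limma, adjusted p = 0.0381). Paics had 0.70 and 0.82 against -0.28, -0.93 and -0.28, and 0.96 and 0.67 against -1.15, -0.04 and -0.08, and was higher by 1.25 ± 0.33 (limma, adjusted p = 0.0267). Gmps, with 0.81 and 1.50 against -0.84, -1.02 and -0.47 and 0.63 and 0.25 against -1.59, -0.51 and -0.16, was separate as well, while its difference of 1.56 did not pass (limma, adjusted p = 0.109).

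Of these calls, Ppat at 8 h and Pfas at 32 h were made without each array in turn, with adjusted p up to 0.00305 and 0.0391 in limma. Pfas at 8 h was lost without MycOFF water 8 h replicate 3 (adjusted p = 0.0637). Ppat at 4 h was lost without any 1 of 7 arrays of that time (adjusted p up to 0.137), namely MycON exendin-4 replicates 1 and 2, MycON water replicates 1 and 2, MycOFF exendin-4 replicates 1 and 3 and MycOFF water replicate 3. It was also lost under the mean over probe sets (0.52, adjusted p = 0.0975 in limma). The same held with only the arrays compared (0.0849) and with the 8 excluded arrays included (0.525). Adsl at 8 h, Paics at 16 and 32 h and Gart at 32 h were lost under some other settings too. Adsl at 8 h was lost without any 1 of 5 (up to 0.269), namely replicate 1 of each of the 4 groups and MycOFF exendin-4 replicate 2. Paics at 16 h was lost without any 1 of 4 (up to 0.211), namely MycON water replicate 1 and replicate 3 of MycON exendin-4, MycOFF exendin-4 and MycOFF water. At 32 h Paics was lost without any 1 of 6 (up to 0.118) and Gart without any 1 of 7 (up to 0.13), namely every MycON array, MycOFF exendin-4 replicate 1, MycOFF water replicate 2 and, for Gart, MycOFF water replicate 1.

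Within a single time and injection, Ppat at 8 h with exendin-4 was the only call. With water 0 of 9 genes were called by limma at 4, 8, 16, 32 and 72 h, where 0.698%, 0.213%, 0.319%, 0.402% and 0.0152% of all genes were higher. In the same order 2, 4, 2, 4 and 0 of the 9 had an unadjusted p under 0.05, beside 7.5%, 9.04%, 9.48%, 8.71% and 5.77% of all genes. With exendin-4 0 of 9 were called at 4, 16, 32 and 72 h, where 0.144%, 0.0835%, 0.281% and 0.903% of all genes were higher. There 1, 2, 4 and 0 of the 9 had an unadjusted p under 0.05, beside 6.67%, 9.83%, 7.52% and 9.72% of all genes. Ppat at 8 h with exendin-4 was called without each array in turn (adjusted p up to 0.0475) and not with the 8 excluded arrays included (adjusted p = 0.153 in limma).

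At 72 h the MYC effect lay between -0.68 (Pfas) and 0.37 (Ppat), with a smallest limma adjusted p of 0.611 and 0 of 9 genes at an unadjusted p under 0.05, beside 10.7% of all genes. These values are of the probe set that stood for each gene. Pfas had -1.27, 0.58 and 1.04 in MycON against 0.37 and 1.04 in MycOFF with water, and -1.37, -0.37 and -0.80 against -0.50, 0.27 and 0.03 with exendin-4. The states overlapped, with the MycON exendin-4 values toward the lower end. Ppat had -0.06, 0.45 and 0.01 against -0.43 and -0.51 with water, where the states were apart, and 0.35, -1.08 and -0.88 against -0.06, -0.97 and -0.94 with exendin-4, where they overlapped. At the same time 4 of 7 macrophage markers were higher in MycON, with a median difference of 2.16 over the 7. Of the beta-cell markers 0 of 7 were called, with a median of -0.51, where 1.38% of all genes were called in either direction. The part of these shifts in the 72 h values was not tested.

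The change over time was tested directly. In a limma F test over the 5 times the MYC effect was not called as changing for any of the 9 genes, where 1.59% of all genes were. At an unadjusted p under 0.05 there were 3 of 9, beside 13.1% of all genes. The smallest adjusted p were 0.0507 for Pfas and 0.132 for Ppat. In a contrast added after the data had been seen, the effect at 72 h minus the mean of the 4 earlier times was -2.62 ± 0.55 for Pfas (limma, adjusted p = 0.00923), the 1 gene of 9 called, where 0.903% of all genes were lower. The call was made without each array in turn (adjusted p up to 0.0479) and not with the 8 excluded arrays included (-2.23, adjusted p = 0.0733). The other 8 genes were also below 0, among them Gart at -1.44 (adjusted p = 0.376), Adsl at -1.22 (adjusted p = 0.234), Paics at -0.98 (adjusted p = 0.182) and Ppat at -0.74 (adjusted p = 0.348).

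A further contrast of the same kind set 4 and 8 h against 16 and 32 h and called 0 of 9 genes in limma, where 0.0531% of all genes were called. At an unadjusted p under 0.05 there were 2 of 9, beside 12.4% of all genes. Ppat was at 0.94 ± 0.31 (adjusted p = 0.218), toward the earlier times, and Gart at -1.41 ± 0.64 (adjusted p = 0.364), toward the later ones, so that an order of the genes in time was not shown. In MycOFF islets none of the 9 genes was called as changing over time by the limma F test (adjusted p = 1), where 0.00759% of all genes were. At an unadjusted p under 0.05 there were 2 of 9, beside 4.26% of all genes.

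The MycON mean was counted over the 10 pairs of groups at matched injection and time, through the probe set that stood for each gene. It was higher in 10 of 10 for Ppat and Gmps, and in 9 for Paics and Adsl. It was higher in 8 for Gart, Pfas and Prps1, in 4 for Impdh1 and in 3 for Atic. Over all genes 2.25% were higher in all 10. The other probe sets of Ppat and Gmps did not have 10 of 10. In Ppat 1428543_at the MycON mean was lower at 16 h with water (-0.01 and -0.17 against 0.03 and -0.07). In Gmps 1455057_at every MycON array lay below every MycOFF array at 72 h with water. Gmps 1435656_at had lower MycON means at 72 h with both injections. The next counts are again of the probe set that stood for each gene. Ppat had every MycON array above every MycOFF array in 9 of 10 pairs, the exception being exendin-4 at 72 h. Paics had this in 7 pairs, Pfas and Adsl in 6, Gart in 4, Gmps in 3, Prps1 in 1 and Atic and Impdh1 in 0. The second probe set of Ppat, 1428543_at, had it with exendin-4 at 16 h and with both injections at 32 h, and overlapped in the other pairs. Atic and Impdh1 each had all MycON arrays below all MycOFF arrays in 2 pairs, as 39% of all genes had in at least 2. Over all genes and pairs 12.4% were separate in the upward and 13.7% in the downward direction, and 5.04% of genes were so in at least 5 of 10 pairs, as were 4 of the 9 genes here.

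Across the 20 group means the genes varied together to different degrees. As a description over means that share the fit, the arrays and the MYC contrast, Pearson's r was 0.85 between Gart and Gmps, 0.84 between Gart and Paics and 0.84 between Adsl and Pfas, while the neighbours Ppat and Paics had 0.59. Through the probe set that stood for it, Atic stood apart, with r from 0.03 to 0.31 with the other 8 genes, as did Impdh1, with -0.16 to 0.29. Among all other genes tested, the 5 most like the mean of the 9 genes were Pgam1, a glycolytic mutase (r = 0.96), Nifk (0.96), Rrn3, an initiation factor of RNA polymerase I (0.95), Rab5if (0.94) and Ndufaf6 (0.94). The gene most like Ppat was Mtrr (0.94), that most like Gart was Polr2e, a subunit of RNA polymerase II (0.94), that most like Pfas was Hspa9, a mitochondrial chaperone (0.92), and that most like Paics was Topbp1 (0.93). Adsl was nearest to Pgam1 (0.95), Gmps to Farsa (0.93), Prps1 to Wrnip1 (0.93), Impdh1 to Rims3 (0.86) and Atic to Pprc1 (0.76).

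The routes around the pathway were described by lists of neighbouring enzymes, again as the MYC effect over both injections and all times. These lists too were chosen with earlier results of these data known. By the rule of the first comparison, under which 9.93% of all genes were higher, the counts per list were as follows. Of the other genes of phosphoribosyl pyrophosphate supply 1 of 4 rose, Prps2, by 1.02 ± 0.21 (limma, adjusted p = 0.000517), beside the 0.29 of its relative Prps1, a difference between them that was not tested. Of the adenine branch 0 of 2 passed, with Adss at 0.15 and Adssl1 at -0.01. Of the salvage enzymes 3 of 6 rose: Hprt, which recycles hypoxanthine and guanine, by 0.68 (adjusted p = 0.000259), Dck by 1.05 (adjusted p = 0.00143) and Aprt by 0.60 (adjusted p = 0.00402). Of interconversion and breakdown 1 of 7 rose, Ada, adenosine deaminase, by 0.57 (adjusted p = 0.000808). Of the nucleotide kinases 2 of 6 rose, Ak4 by 1.49 (adjusted p = 5.69e-07) and Nme1 by 0.70 (adjusted p = 0.0317). The medians of these 5 lists were 0.16, 0.07, 0.44, 0.11 and 0.17, beside 0.80 for the 9 genes and -0.03 for all genes tested.

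**Figure D4:**
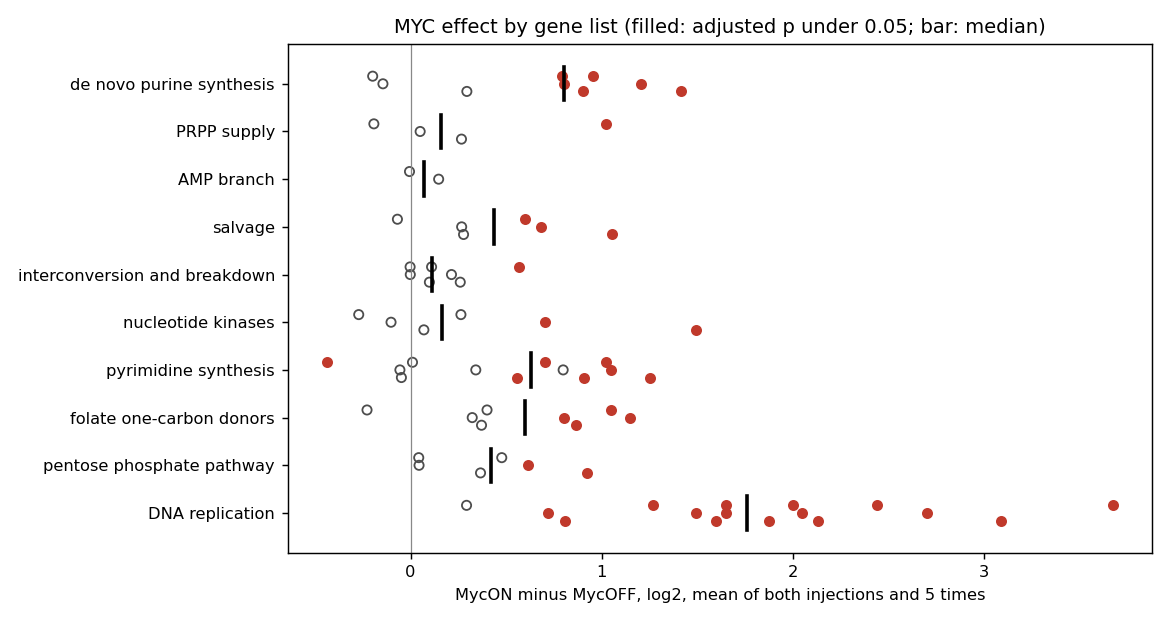
Difference of MycON minus MycOFF (horizontal axis, log2, mean of both injections and 5 times) for each tested gene of 10 lists; filled red points passed limma's adjusted p under 0.05, open points did not, and bars are list medians. The 9 genes of de novo synthesis have a median of 0.80 and DNA replication 1.76.

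Among the pathways that feed or run beside purine synthesis, 4 of 8 genes of the folate one-carbon supply rose, namely Shmt1 by 1.15 (limma, adjusted p = 9.11e-05), Mthfd1l by 0.87 (adjusted p = 0.00158), Shmt2 by 1.05 (adjusted p = 0.01) and Mthfd2l by 0.80 (adjusted p = 0.0231). Mthfd1, which makes the formyl donor used by Gart and Atic, was at 0.40 and Mthfd2 at 0.37, and neither passed. Of the pentose phosphate pathway, the source of ribose phosphate, 2 of 6 rose, Pgd by 0.61 (adjusted p = 0.00565) and Tkt by 0.92 (adjusted p = 0.0449). Of pyrimidine synthesis 6 of 12 rose, among them Ctps by 0.91 (adjusted p = 7.28e-06), Uck2 by 1.25 (adjusted p = 0.000195) and Dtymk by 1.05 (adjusted p = 0.00027), while Uckl1 fell by 0.44 (adjusted p = 0.0313) and Cad, which starts that pathway, was at 0.80 (adjusted p = 0.0554). Of DNA replication 15 of 16 rose, with a median of 1.76. Over all genes tested 9.93% were higher and 5.48% lower.

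Set beside each other in time, the counts of higher genes at 4, 8, 16, 32 and 72 h were 1, 3, 1, 3 and 0 of the 9 purine genes and 0, 13, 9, 10 and 4 of the 16 replication genes. Over all genes tested 1.58%, 3%, 2.06% and 2.36% were higher at 4, 8, 16 and 32 h. At 72 h 1.38% were called in either direction. The medians were 0.58, 0.65, 0.87, 1.25 and -0.08 for the purine genes and 0.63, 2.89, 1.92, 2.09 and 1.47 for the replication genes. At 72 h the replication list was thus described by a positive median and 4 calls and the purine list by a median near 0 and no call. The difference between the lists was not tested.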

How the data were processed

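RNA of laser-captured islets was hybridised to 60 Affymetrix mouse arrays, 1 per sample. The authors deposited log2 values centred per probe set on its 60-array median (100% of probe sets have a median of 0 within 1e-04); the base is inferred from the range of -12.3 to 12.8. MAS5 and GCRMA are named in the submitters' processing notes without role or version, and the genome build is not given in the sources used here. Nothing was renormalized. Precision is limited by the number of arrays, and no batch is labelled.

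Of 45101 probe sets, 34945 had 1 gene symbol, 932 several, 9160 none and 64 were controls. Probe sets below the 40th percentile of the interquartile range (0.101) were dropped, leaving 13176 genes. limma 3.58.1 in R 4.3.3 fitted means of the 20 groups over 52 arrays (residual degrees of freedom 32), with Benjamini-Hochberg adjustment over all genes and a threshold of 0.05. Figures used matplotlib 3.10.9. The named genes are the listed members, those past the threshold in neighbouring lists, and the genes of highest Pearson's r with the members. Members and lists were chosen with earlier results of these data known. Alternatives were all 60 arrays, quantile or median normalization, other filters, array weights, the mean over probe sets, only the arrays compared, a replicate block and leaving out each array.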

Additional observations from a re-analysis of the deposited data

Results flagged for a closer look

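The MYC effect on Pfas at 72 h minus the mean of the 4 earlier times was -2.62 on the log2 scale (limma, adjusted p = 0.00923), listed here as a difference between times. This contrast was chosen after the data had been seen, so its p is no independent support. The F test over the 5 times did not call Pfas (limma, adjusted p = 0.0507), and with all 60 arrays the contrast did not pass (-2.23, adjusted p = 0.0733).

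Among the 8 arrays that the submitters excluded, the highest Gmps deviation in its probe set 1433567_at was 2.56. This was above the highest of the 52 arrays used (1.50), and the median of the 8 was 2.01. The other probe sets of Gmps were not high there: 1455057_at ran from -2.01 to -0.01 and 1435656_at from -1.06 to 0.64 in the 8 arrays. In the same 8 arrays the median was -2.12 for Prps1 and -1.02 for Impdh1. The SD of the deviations over all probe sets was 0.968 to 1.39 in these arrays, against 0.284 to 0.946 in those used.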

How the results depend on the processing

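The values here are counts of the 9 genes called by limma unless a gene is named. The count for the mean of both injections was 6 under leaving out each array and 5 with all 60 arrays, and the counts at 72 h, for exendin-4 and for the interaction were 0 under every alternative run. With all 60 arrays the count was 1 with water, 0 at 4 h, 0 at 16 h, 1 at 32 h, 0 for 72 h minus earlier times and 0 at single times with exendin-4. With quantile normalization it was 2 at 4 h, 5 at 32 h, 2 and 2 at single times with water and exendin-4, and 1 for the change over time. With the mean over probe sets it was 5 at 32 h, 3 for 72 h minus earlier times, 1 and 2 at single times with water and exendin-4, and 1 for the change over time. With the 60th percentile filter it was 2 at 4 h and 1 for the change over time. With array weights it was 2 at 4 h, 0 at 16 h, 5 at 32 h, 8 and 3 at single times with water and exendin-4, and 1 for the change over time. With only the arrays compared it was 2 with exendin-4, 0 at 16 h and 0 at single times with exendin-4. Leaving out each array gave 2 to 5 with water, 2 to 5 with exendin-4, 0 to 2 at 4 h, 2 to 3 at 8 h, 0 to 3 at 16 h, 1 to 4 at 32 h, 1 to 2 for 72 h minus earlier times, 0 to 2 and 1 to 2 at single times with water and exendin-4, and 0 to 1 for the change over time. The cause of these changes was not tested, except that fewer arrays enter some fits.

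The sign turned for Prps1 with exendin-4 and all 60 arrays (-0.094). It turned for Ppat through 1441770_at (-0.030 for the mean, -0.017 with water, -0.042 with exendin-4), for Gart through 1424435_a_at (-0.018 for the mean, -0.055 with exendin-4) and for Atic through 1428506_at (0.11 for the mean, 0.033 with water, 0.19 with exendin-4). Leaving out each array moved Atic with water over -0.43 to 0.060, with the sign turned without MycOFF water 16 h replicate 2 (0.02) or MycOFF water 72 h replicate 1 (0.060). With all 60 arrays Ppat, Paics and Adsl with water and Ppat with exendin-4 were not called (adjusted p = 0.138, 0.177, 0.154 and 0.23 in limma). Gart and Gmps, not called within an injection, passed under quantile normalization (Gart with water 0.0179 and with exendin-4 0.0322, Gmps with water 0.0292) and under other settings. Without the filter on variation Adsl was not called with either injection (adjusted p = 0.0693 and 0.069).

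The replicate numbers were not shown to pair the arrays. Over 22 same-numbered pairs the deviations from the group means correlated with r from -0.38 to 0.45, with 5 over 0.1. Arrays of different number were not compared, so these values cannot decide on a pairing. With the number as a replicate block 6 genes were called for the mean of both injections, 4 with water and 4 with exendin-4, as without it.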
